A study of Homo sapiens with 13 samples.

Results

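The MYC network is a set of transcription factors of the basic helix-loop-helix leucine zipper class that share one partner, MAX. MYC, MYCN and MYCL bind DNA as dimers with MAX, at E-boxes, and activate genes of growth, ribosome production and metabolism. MXD1, MXD3, MXD4, MXI1 and MNT compete for MAX and recruit SIN3 and histone deacetylase complexes to the same kind of site. In human pluripotent cells MYC and MYCN are known for their part in self-renewal, and MXD proteins are known from cells that leave the cycle or differentiate. The 9 genes described here, MYC, MYCN, MYCL, MAX, MXD1, MXD3, MXD4, MXI1 and MNT, were taken by symbol from 2 tables of gene counts, each with 61546 features, and all 9 were found in both.

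The libraries are bulk RNA-seq of RUES2, a human embryonic stem cell line, in which all cells carried a GFP::SMAD4 fusion as a reporter of BMP signaling. In the time series, cells received 100 ng/mL BMP4 together with 5 µM IWP2, an inhibitor of WNT secretion, and ROCK inhibitor, and were collected at 0 h (2 libraries) and at 4, 12, 20, 28 and 42 h (1 library each). The 0 h labels name the same treatment and were read as cells collected when it began. In the dose response, cells received the same agents and 0, 10, 30, 100 or 300 nM of the compound LDN-193189 (LDN), which blocks BMP receptor kinases, and each dose gave 1 library at 5 h. A further 5 h library came from cells in mTeSR maintenance medium alone, here called untreated, which lacked both BMP4 and IWP2. The comparisons ask how these genes changed over time after BMP4, and how their level at 5 h moved with the strength of BMP receptor inhibition.

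Library totals ran from 37957385 to 71333471 counts in the time series and from 15600931 to 33989998 in the dose response, where the untreated library was the smallest. RNA of the 2 experiments was extracted with different kits, and libraries were made with ribosomal RNA depletion in the time series and polyA selection in the dose response, so values were compared within an experiment. Counts relative to the library size (CPM) were scaled by TMM factors, and 3 counts corresponded to between 0.0409 and 0.0778 CPM in the time series and between 0.0875 and 0.201 CPM in the dose response. The share of mitochondrial counts was 7.60% and 4.29% in the 0 h libraries and 2.01% to 4.23% later. It was 7.89% in the untreated library and 4.22% to 4.49% in those with BMP4. The summed CPM of 8 pluripotent markers fell from 7858 and 8198 at 0 h to 4276 at 42 h, and that of 8 amnion-like markers rose from 24.2 and 27.3 to 7472. Of the pluripotent markers 6 of 8 were called lower at 42 h (17.8% of all genes), and of the amnion-like markers 8 of 8 were called higher (19.9%). The remaining pluripotent markers were not called at 42 h by edgeR, also at an unadjusted p under 0.05. The 4 endoderm markers summed to at most 4.95 CPM and the 5 primitive streak and mesoderm markers to at most 9.09 CPM in any library, and of 4 neural markers only OTX2 reached a tested level. With LDN at 5 h the amnion-like sum fell from 272 CPM at no LDN to 34.7 CPM at 300 nM and the pluripotent sum rose from 6977 to 8193 CPM, and the part of such shifts in the values below was not tested. Bulk values do not tell fewer cells of a type from less RNA per cell. Nothing in the labels says that the 0 h libraries came from separate cultures. P-values against 0 h therefore measure only the spread between those libraries, which may be technical. The edgeR fit shares this spread across genes, so a p-value or SE is not the 0 h scatter of that gene alone. P-values of trends measure the scatter of single libraries around the fit, shared across genes in the same way.

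The promoters of 4 members are shown because these genes moved with time or dose and their windows hold a motif tied to the network or to BMP signaling. The window is the 250 bases before a RefSeq start (build GRCh38.p14, of which only the bases outside the annotated gene are printed), read 5′ to 3′ on the strand of the gene. Capitals mark CACGTG, the canonical E-box bound by MAX dimers, and GGCGCC, a GC-rich element described for SMAD1 and SMAD5. Both motifs read the same on both strands and do not overlap each other here. Of 35116 such windows, 6.34% held CACGTG and 16.4% held GGCGCC. RefSeq entries were matched for 8 of the 9 members, 11 entries in all, with 3 for MXI1, of which the first is shown, and 2 for MAX. The E-box letters stood in 2 members, MXD4 and MNT, and the GC element in 3, MYCN, MXD4 and MXI1.
MYCN (chr2:15940300-15940549, plus strand): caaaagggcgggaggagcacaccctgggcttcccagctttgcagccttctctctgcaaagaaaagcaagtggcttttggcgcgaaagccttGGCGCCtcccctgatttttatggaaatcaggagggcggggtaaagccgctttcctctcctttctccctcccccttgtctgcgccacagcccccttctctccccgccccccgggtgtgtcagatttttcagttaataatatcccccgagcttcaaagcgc
MXI1 (chr10:110207355-110207604, plus strand): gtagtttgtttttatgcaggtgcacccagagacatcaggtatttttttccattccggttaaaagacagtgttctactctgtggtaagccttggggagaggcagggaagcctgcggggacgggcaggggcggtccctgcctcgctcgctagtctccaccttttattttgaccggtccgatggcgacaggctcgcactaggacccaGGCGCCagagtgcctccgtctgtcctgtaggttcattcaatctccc
MXD4 (chr4:2262110-2262359, minus strand): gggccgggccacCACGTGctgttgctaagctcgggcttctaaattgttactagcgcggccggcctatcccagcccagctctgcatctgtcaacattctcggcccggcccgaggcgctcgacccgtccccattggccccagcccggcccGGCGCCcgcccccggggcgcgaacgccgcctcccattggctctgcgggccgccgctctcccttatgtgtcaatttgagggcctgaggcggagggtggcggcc
MNT (chr17:2401105-2401310, minus strand): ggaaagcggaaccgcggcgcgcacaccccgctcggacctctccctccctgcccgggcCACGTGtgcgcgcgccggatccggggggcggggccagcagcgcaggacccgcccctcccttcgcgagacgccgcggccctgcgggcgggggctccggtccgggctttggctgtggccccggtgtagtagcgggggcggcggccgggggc
Counted back from the RefSeq start, the GC element begins at -159 in MYCN, -46 in MXI1 and -102 in MXD4, and the E-box at -238 in MXD4 and -193 in MNT. A match describes these letters only, and binding was not measured here.

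MYC, the founding member, lies on chromosome 8 (ENSG00000136997). It stood at 149 and 135 CPM in the 0 h libraries, at 56.0 CPM at 4 h, 59.7 CPM at 12 h and 52.6 CPM at 20 h, and then at 70.2 CPM at 28 h and 80.4 CPM at 42 h. All 5 later libraries lay below both 0 h libraries, the lowest at 20 h, and 28 and 42 h lay above the 3 earlier ones. At 4 h, MYC was at 0.394 of its 0 h mean of 142 ± 9.65 CPM (SD, n = 2). It was the 1 member called at 4 h (log2 difference -1.35 ± 0.35 (SE), adjusted p = 0.00395, edgeR quasi-likelihood test with Benjamini-Hochberg adjustment), in a comparison that called 5.02% of 15976 tested genes, 4.39% higher and 0.632% lower. The mitochondrial share was 7.60% and 4.29% in the 0 h libraries and 4.23% at 4 h, and its part in the result was not tested.

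MYC stayed below 0 h at each later time, with log2 differences of -1.25 at 12 h (adjusted p = 0.00537), -1.43 at 20 h (adjusted p = 0.000538), -1.02 at 28 h (adjusted p = 0.0187) and -0.82 ± 0.34 (SE) at 42 h (adjusted p = 0.044, all edgeR). The 42 h call was lost without the filter on low counts (adjusted p = 0.131). A straight line over the 42 h was not called (slope -0.017 ± 0.012 per h (SE), adjusted p = 0.263). The joint test of a line and a curve was called (adjusted p = 0.0242), and lost its call without either 0 h library (adjusted p = 0.0972 and 0.0825) or without the 20 h library (adjusted p = 0.102). In the order of levels, 12 and 4 h, and 4 and 20 h, differed by less than the 2 0 h libraries did from each other, on the log2 scale.

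MYC rose at each step of LDN at 5 h. It stood at 54.8 CPM with no LDN, 71.2 CPM at 10 nM, 73.6 CPM at 30 nM, 87.0 CPM at 100 nM and 101 CPM at 300 nM. Untreated cells had 133 CPM, above all 5 doses. In FPKM, the deposited values per transcript length, they stood at 68.1, below the 72.9 FPKM at 300 nM, and the length implied by counts and FPKM was 1876 bases in untreated cells and 1398 to 1548 bases in the BMP4 libraries. From no LDN to 300 nM the ratio was 1.85, and the fitted slope was 0.20 ± 0.017 log2 per dose step (SE, adjusted p = 2.77e-06, edgeR), called under each of the 5 fits that left out a dose. Only the neighbours 10 and 30 nM differed by less than their counting error. With BMP4 and no LDN, MYC was 1.28 log2 units lower than in untreated cells (log2 ratio -1.28, 95% interval -1.38 to -1.19 from counting error only, 1 library each and no test), and in FPKM this log2 ratio was -0.81. At 300 nM LDN the log2 ratio to untreated cells was -0.40 in CPM (95% counting interval -0.48 to -0.32).

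**Figure D1:**
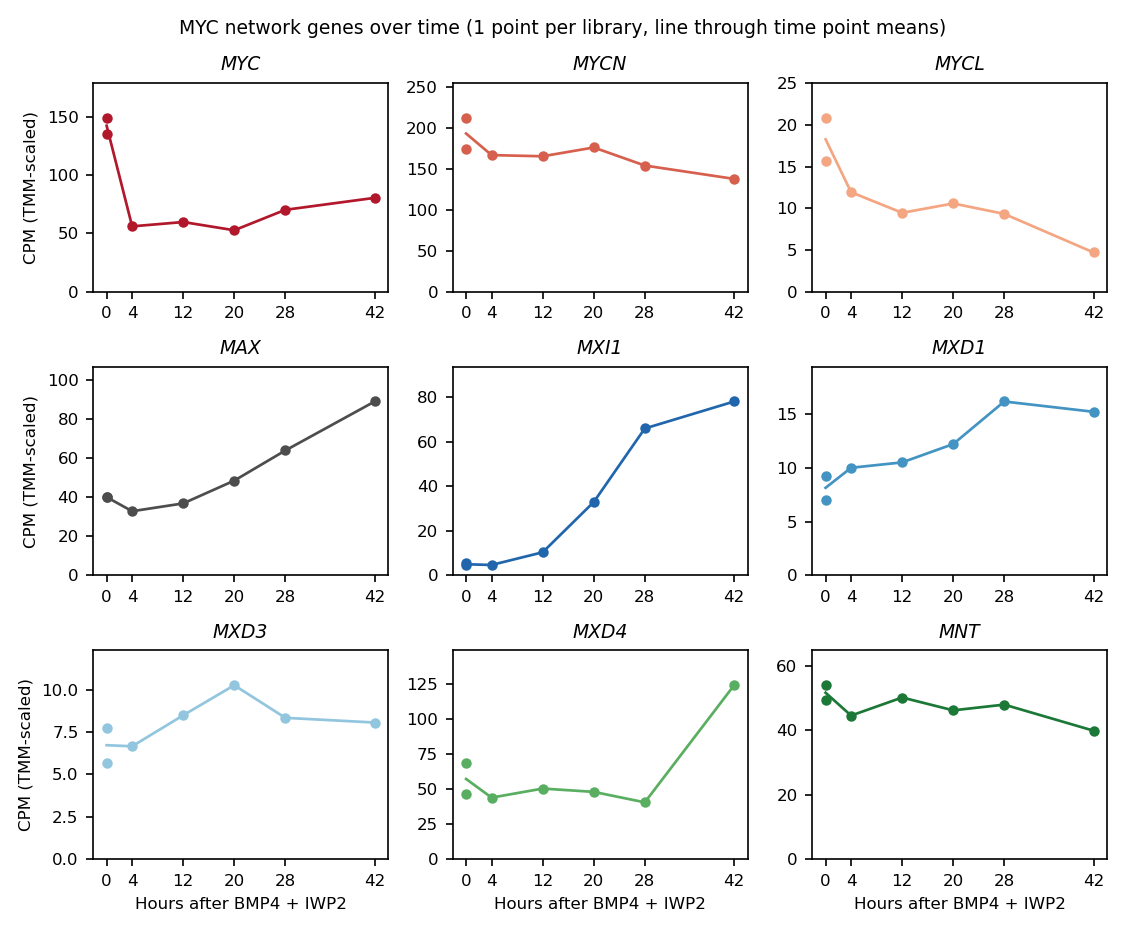
CPM (TMM-scaled, linear axes from 0, 1 panel per gene with its own scale) of the 9 genes against hours after BMP4 with IWP2, 1 point per library and a line through the time point means. MYC drops to 56.0 CPM at 4 h, MXI1 climbs from about 5 to 78.0 CPM, and MXD4 stands at 124 CPM at 42 h only.

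MYCN, the paralog that is the main MYC gene of many embryonic and neural cells, lies on chromosome 2 (15940550 to 15947007, plus strand, ENSG00000134323). It stood at 174 and 213 CPM at 0 h and at 167, 166, 177, 154 and 138 CPM at 4, 12, 20, 28 and 42 h. The libraries at 4, 12, 28 and 42 h lay below both 0 h libraries, and 20 h between them. Its time slope was not called (-0.0099 ± 0.0040 per h (SE), adjusted p = 0.0854, edgeR), nor any time point (42 h log2 difference -0.49, adjusted p = 0.271). With CPM on library totals in place of TMM the fall over time was called (adjusted p = 0.0177), and likewise with limma on FPKM (adjusted p = 0.0161). All 5 neighbours in its order of levels over time differed by less than the 0 h libraries did.

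In the dose response MYCN stood at 141 CPM with no LDN, 177 CPM at 10 nM, 196 CPM at 30 nM, 218 CPM at 100 nM and 217 CPM at 300 nM, beside 222 CPM in the untreated library. Its level rose up to 100 nM, and the neighbours 100 nM, 300 nM and untreated did not differ beyond counting error. The slope was 0.15 ± 0.019 log2 per dose step (SE, adjusted p = 0.000119, edgeR) and ranged from 0.10 to 0.20 when single doses were left out, called each time. MYCN with BMP4 and no LDN was at a log2 ratio of -0.65 to untreated cells (95% counting interval -0.72 to -0.58). Its antisense neighbour MYCNOS, which shares exon bases with it, was counted at 1.65 to 2.94 CPM over all libraries, and whether the counting used strand is not given in the sources used here.

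MYCL, the third paralog (chromosome 1, 39895428 to 39902256, minus strand, ENSG00000116990), stood at 15.7 and 20.8 CPM at 0 h and at 11.9, 9.45, 10.6, 9.32 and 4.69 CPM at 4, 12, 20, 28 and 42 h. All later libraries lay below both 0 h libraries, and the 42 h library lowest. The fall with time was called (slope -0.039 ± 0.0076 per h (SE), adjusted p = 0.00533, edgeR), with adjusted p = 0.0574 without the 42 h library. At 42 h MYCL was at 0.257 of its 0 h mean of 18.3 ± 3.65 CPM (SD, n = 2), a log2 difference of -1.96 ± 0.35 (SE, adjusted p = 1.37e-07, edgeR). Its calls at 12 h (log2 difference -0.95, adjusted p = 0.0366) and 28 h (-0.97, adjusted p = 0.0165) were both lost with DESeq2 (adjusted p = 0.191 and 0.0907). The 12 h call was also lost with library totals (adjusted p = 0.05002) and without the filter (adjusted p = 0.0775).

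MYCL too stood higher at each LDN step, from 9.21 CPM with no LDN through 10.4, 11.7 and 13.5 CPM to 14.8 CPM at 300 nM, with 18.8 CPM in untreated cells. The neighbours no LDN and 10 nM, 10 and 30 nM, and 100 and 300 nM each differed by less than their counting error. The slope of 0.17 ± 0.026 log2 per dose step (SE) was called (adjusted p = 0.000386, edgeR) and stayed between 0.17 and 0.18 when single doses were left out. The 3 paralogs thus rose together with LDN, with ratios of 300 nM to no LDN of 1.85 for MYC, 1.54 for MYCN and 1.61 for MYCL. Against untreated cells, MYCL with BMP4 and no LDN was at a log2 ratio of -1.03 (95% counting interval -1.27 to -0.79).

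**Figure D2:**
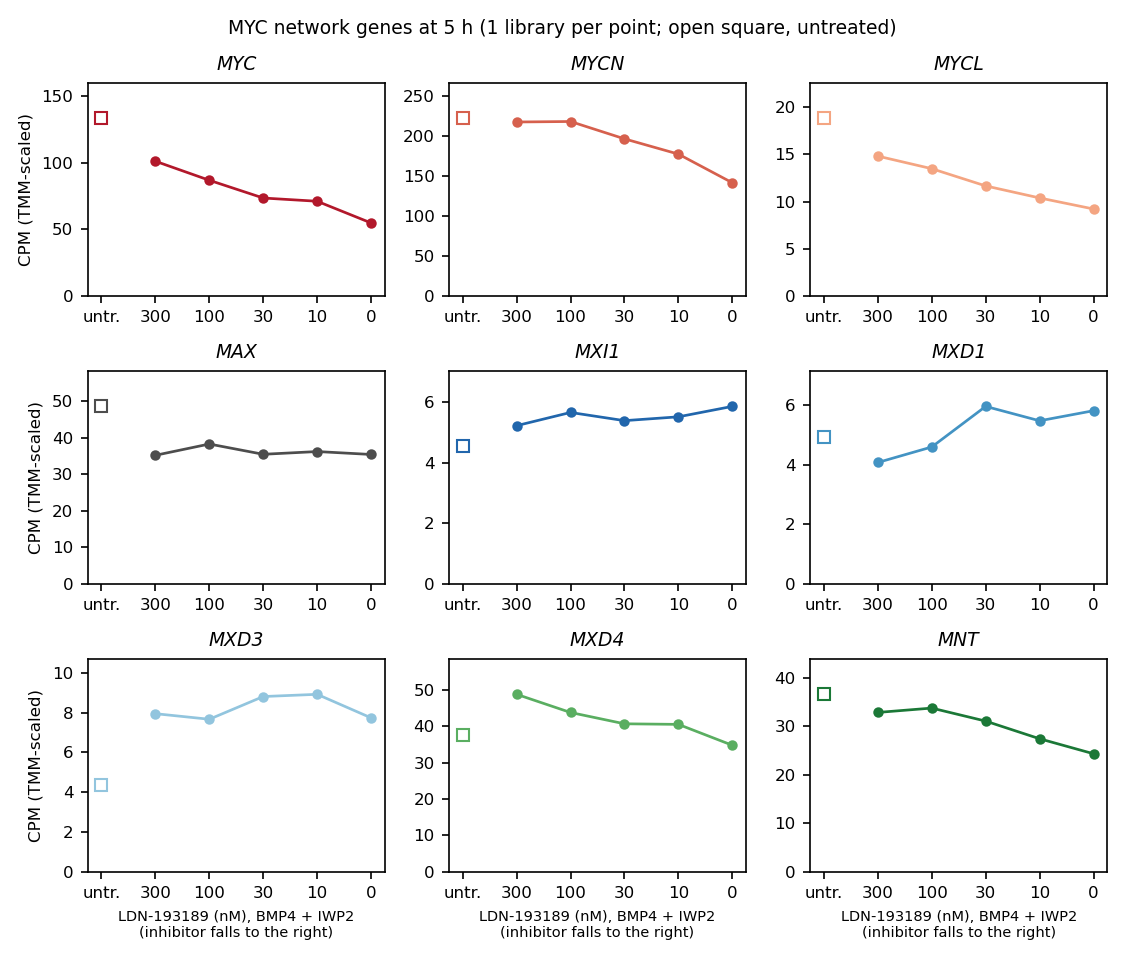
CPM (TMM-scaled, linear axes from 0, 1 panel per gene with its own scale) of the 9 genes at 5 h, with the LDN dose in nM falling from left to right (filled points, BMP4 and IWP2) and untreated cells as an open square at the left, 1 library per point. MYC falls from 101 CPM at 300 nM to 54.8 CPM at no LDN and MYCN from 217 to 141 CPM, while MAX stays between 35.2 and 38.3 CPM.

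MAX, the obligate partner of all the others, lies on chromosome 14 (65006174 to 65102695, minus strand, ENSG00000125952). It stood at 40.1 and 40.2 CPM at 0 h, 32.9 CPM at 4 h, 36.9 CPM at 12 h, 48.6 CPM at 20 h, 64.1 CPM at 28 h and 89.2 CPM at 42 h. After a lower level at 4 and 12 h it climbed at each time, and from 20 h lay above both 0 h libraries. The rise was called as a trend (slope 0.029 ± 0.0049 per h (SE), adjusted p = 0.00285, edgeR) and at 42 h, where it was at 2.22 times its 0 h mean (log2 difference 1.15 ± 0.32 (SE), adjusted p = 0.00123). At 28 h it was not called (log2 difference 0.67, adjusted p = 0.132).

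MAX did not follow LDN. It stood at 35.5, 36.3, 35.5, 38.3 and 35.2 CPM over the 5 doses, and its slope of 0.0064 ± 0.018 log2 per dose step (SE, adjusted p = 0.839, edgeR) took the other sign without the library at no LDN or at 100 nM. Untreated cells had 48.7 CPM, above all 5 BMP4 libraries, whose lowest log2 ratio to untreated was -0.47 at 300 nM (95% counting interval -0.60 to -0.33). FNTB, on the opposite strand and with overlapping exons, was counted at 22.1 to 40.6 CPM in the time series.

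MXI1 (also called MXD2), a MAX partner that represses MYC targets, lies on chromosome 10 (110207605 to 110287365, plus strand, ENSG00000119950). It stood at 5.34 and 4.60 CPM at 0 h and 4.67 CPM at 4 h, and then at 10.4 CPM at 12 h, 32.9 CPM at 20 h, 65.9 CPM at 28 h and 78.0 CPM at 42 h. It lay between the 0 h libraries at 4 h, above both from 12 h, and at 42 h was at 15.7 times its 0 h mean of 4.97 ± 0.523 CPM (SD, n = 2). The log2 difference to 0 h was 1.06 at 12 h (adjusted p = 0.0101), 2.73 at 20 h (adjusted p = 4.72e-17), 3.73 at 28 h (adjusted p = 7.16e-31) and 3.98 ± 0.31 (SE) at 42 h (adjusted p = 8.29e-35, all edgeR). Its slope of 0.11 ± 0.012 per h (SE, adjusted p = 0.000351, edgeR) was called and ranged from 0.10 to 0.14 when single libraries were left out.

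At 5 h MXI1 showed no called change with LDN. It stood at 5.85 CPM with no LDN, at 5.51, 5.38, 5.65 and 5.22 CPM at the rising doses, and at 4.55 CPM in untreated cells, where 68 counts lie behind the value. The slope was -0.029 ± 0.038 log2 per dose step (SE, adjusted p = 0.643, edgeR), and all 5 neighbours in its order of levels lay within counting error.

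MXD1, the first described MXD gene (also called MAD1), lies on chromosome 2 (69897688 to 69942945, plus strand, ENSG00000059728). It stood at 9.28 and 7.002 CPM at 0 h and at 10.0, 10.5, 12.2, 16.2 and 15.2 CPM at 4, 12, 20, 28 and 42 h. All 5 later libraries lay above both 0 h libraries, but each neighbour in the order of levels differed by less than the 0 h libraries did. The slope was called (0.024 ± 0.0057 per h (SE), adjusted p = 0.0136, edgeR), but not with library totals (adjusted p = 0.0533) or with limma on FPKM (adjusted p = 0.161). The 28 h difference (log2 0.99, adjusted p = 0.00719) and the 42 h difference (0.91 ± 0.30 (SE), adjusted p = 0.0103) had adjusted p = 0.0851 and 0.0798 with DESeq2, and the 42 h difference had adjusted p = 0.069 with library totals. SNRNP27, which shares exon bases on the same strand, was counted at 18.6 to 31.7 CPM in the time series, so reads of the shared part could go to either.

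With LDN, MXD1 stood at 5.82, 5.48, 5.96, 4.60 and 4.08 CPM, with 4.95 CPM in untreated cells. The 2 highest doses had the lowest levels, and the slope of -0.13 ± 0.046 log2 per dose step (SE) was not called (unadjusted p = 0.0178, adjusted p = 0.0719, edgeR).

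MXD4, a family member found in many differentiated tissues, lies on chromosome 4 (2247432 to 2262109, minus strand, ENSG00000123933). It stood at 46.2 and 68.4 CPM at 0 h, at 43.98, 50.5, 48.1 and 40.6 CPM from 4 to 28 h, and at 124 CPM at 42 h. The libraries from 4 to 28 h lay near or below the lower 0 h library, and 42 h stood at 3.06 times the 28 h level. The 42 h difference was called (log2 1.12 ± 0.32 (SE), adjusted p = 0.00194, edgeR), and so was a change of any shape (adjusted p = 0.00583), which had adjusted p = 0.493 without the 42 h library. The linear slope was not called (0.021 ± 0.0097 per h (SE), adjusted p = 0.122) and was -0.013 without the 42 h library, so the rise rests on that 1 library. Without the second 0 h library the slope was 0.029 and called (adjusted p = 0.0457, edgeR).

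With LDN, MXD4 went from 34.8 CPM through 40.5, 40.7 and 43.8 CPM to 48.8 CPM at 300 nM, and untreated cells had 37.5 CPM. The neighbours 10 and 30 nM, and 30 and 100 nM, differed by less than their counting error. So did untreated cells from no LDN and from 10 nM. In FPKM, 30 nM (13.5) lay below 10 nM (15.0). The slope was 0.11 ± 0.017 log2 per dose step (SE, adjusted p = 0.000557, edgeR), with adjusted p = 0.187 for limma on FPKM. In CPM, MXD4 at 300 nM stood above untreated cells (log2 ratio 0.38, 95% counting interval 0.24 to 0.52), as did MXD3 (0.87). MYC (-0.40) and MYCL (-0.34) stood below untreated cells, and MYCN (-0.03) did not differ beyond counting error. In FPKM, MYC at 300 nM also stood above untreated cells.

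MNT, the widely expressed antagonist that dimerizes with MAX also in cycling cells, lies on chromosome 17 (2384073 to 2401104, minus strand, ENSG00000070444). It stood at 54.0 and 49.3 CPM at 0 h and at 44.6, 50.2, 46.2, 48.0 and 39.9 CPM at 4, 12, 20, 28 and 42 h. It kept within a narrow range, and neither its slope (-0.0065 ± 0.0038 per h (SE), adjusted p = 0.21) nor the 42 h difference (log2 -0.37, adjusted p = 0.4) was called by edgeR. The fall over time was called with library totals (adjusted p = 0.0417) and with limma on FPKM (adjusted p = 0.0203). With LDN it stood at 24.3, 27.4, 31.1, 33.8 and 32.9 CPM, and at 36.6 CPM in untreated cells. That slope was called (0.12 ± 0.022 log2 per dose step (SE), adjusted p = 0.0024, edgeR), with adjusted p = 0.276 for limma on FPKM, and from untreated cells through 100 and 300 to 30 nM each neighbour in the order of levels lay within counting error of the next.

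MXD3, an MXD gene expressed in proliferating cells in S phase, lies on chromosome 5 (177301461 to 177312757, minus strand, ENSG00000213347). It stood at 5.70 and 7.75 CPM at 0 h and at 6.66, 8.50, 10.3, 8.35 and 8.07 CPM at 4, 12, 20, 28 and 42 h, and no time comparison was called (slope adjusted p = 0.341, edgeR). With LDN it stood at 7.74, 8.92, 8.81, 7.67 and 7.95 CPM (slope adjusted p = 0.796). Untreated cells had 4.35 CPM, below all 5 BMP4 libraries, and MXD3 was the 1 member with a log2 ratio above 0.5 to untreated cells (0.83 with no LDN, 95% counting interval 0.43 to 1.23, from 226 and 65 counts). Its gene overlaps exons of RAB24 on the same strand, counted at 10.5 to 26.5 CPM in the time series, and of PRELID1 on the opposite strand, counted at 158 to 229 CPM, so its level is uncertain.

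Over the 9 genes, 4 were called in the linear time trend, 3 rising (MAX, MXD1 and MXI1) and 1 falling (MYCL), where 36.7% of all tested genes were called, 19.2% higher and 17.5% lower. A change of any shape was called for 6, MYC, MYCL, MAX, MXD1, MXD4 and MXI1, against 47.7% of all genes. At 12 h, 3 members were called, 1 higher and 2 lower, against 9.68% of all genes (7.04% higher, 2.64% lower). At 20 h, 2 were called, 1 in each direction, against 18.5% (12.4% higher, 6.01% lower), and at 28 h 4, 2 in each direction, against 20.3% (13.3% higher, 7.04% lower). At 42 h, 6 were called against 37.7%. At 42 h the 4 members called higher were MAX, MXD1, MXD4 and MXI1 (19.9% of all genes were called higher) and the 2 called lower were MYC and MYCL (17.8% lower). The later libraries are single, so in the comparisons of a time point with 0 h the spread came from the 2 0 h libraries alone, shared across genes. With CPM on library totals the median log2 difference of all genes at 42 h was -0.25 in place of -0.01, and the called genes were then 2415 higher and 3963 lower in place of 3173 and 2851. In the time trend the same change gave 2121 higher and 4069 lower in place of 3072 and 2793. At 42 h the members called were then 3 higher and 2 lower.

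In the dose trend 5 members were called higher with LDN, MYC, MYCN, MYCL, MXD4 and MNT, where 21.3% of 14907 tested genes were called, 10.4% higher and 10.9% lower. By edgeR and by DESeq2 0 members were called lower, with 1 (MXD1) at an unadjusted p under 0.05 by edgeR. Without LDN, 4 members were more than 0.5 log2 units lower than in untreated cells, MYC, MYCN, MYCL and MNT, and 1 higher, MXD3, where 8.87% of 14877 genes were lower by that much and 14.2% higher. In FPKM the log2 ratio of MNT was -0.37, within that limit. The median log2 ratio of all genes was 0.02.

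**Figure D3:**
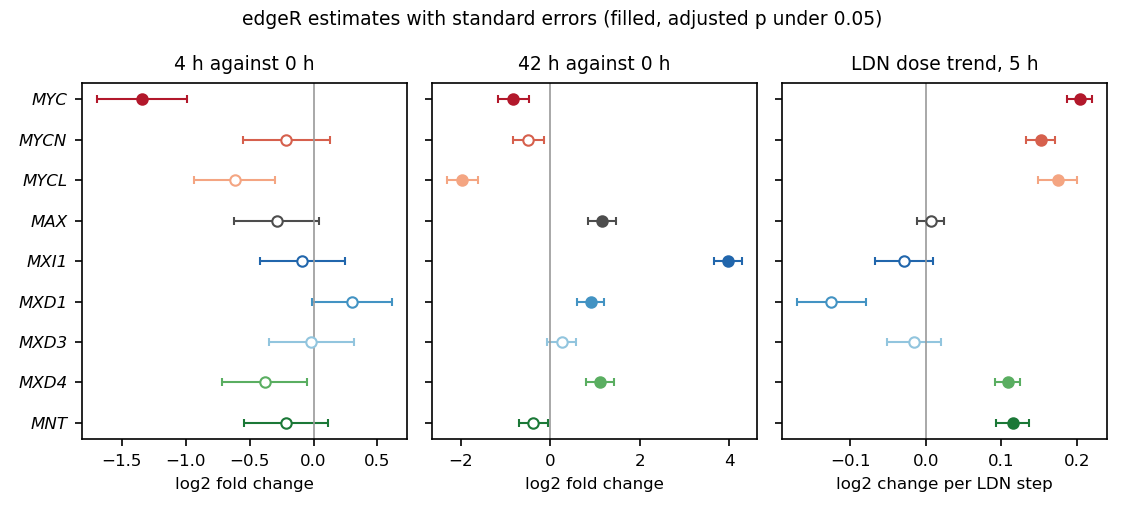
Log2 difference of each of the 9 genes at 4 h (left) and at 42 h (middle) against 0 h, and slope in log2 per LDN dose step (right), from edgeR with bars of 1 SE and filled points for an adjusted p under 0.05. MXI1 stands apart at 3.98 at 42 h, MYC is the 1 filled point at 4 h, and the 3 paralogs have the 3 largest dose slopes.

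Levels of different genes were compared per length, with the FPKM of the deposited tables. In the 0 h libraries MYC stood at 98.7 and 90.4 FPKM and MYCN at 76.3 and 93.8 FPKM, far above MYCL at 5.92 and 8.10 FPKM. The order of MYC and MYCN differed between these 2 libraries. The FPKM of the paralogs summed to 181 and 192 at 0 h, and to 121, 120, 116, 114 and 101 in the 5 later libraries in order of time. The share of MYC in that sum was 54.5% and 47.0% at 0 h. At 4 h it was 32.9%, and by 42 h it stood at 48.0%.

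The antagonists MXD1, MXD3, MXD4, MXI1 and MNT summed to 48.7 and 58.0 FPKM at 0 h, and to 47.9, 55.7, 69.1, 86.6 and 107 FPKM in the later libraries. The ratio of antagonists to paralogs in FPKM went from 0.269 and 0.302 at 0 h through 0.395, 0.465, 0.594 and 0.757 to 1.06 at 42 h. It was higher at each time than at the one before, first with the lower paralog sum at 4 h and from 20 h with the higher antagonist sum. MNT was the leading antagonist at 0 h, with 44.7% and 41.2% of the sum, and MXI1 held 6.70% and 4.64%. At 28 h MXI1 held 53.2% and at 42 h 46.0%, when MXD4 held 30.6%. Transcript levels do not give protein levels, and the ratio has no test.

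In the dose response the paralog sum rose from 103 FPKM with no LDN through 128, 136 and 159 FPKM to 171 FPKM at 300 nM. Untreated cells had 169 FPKM. In CPM the paralog sum was 334 at 300 nM and 374 in untreated cells, where the implied length of MYC was longer. The ratio of antagonists to paralogs fell from 0.356 through 0.341, 0.329 and 0.281 to 0.259, and was 0.191 in untreated cells. Here MYCN held 54.4% to 61.9% of the paralog sum in the 5 BMP4 libraries. MAX stood at 81.2 and 73.7 FPKM at 0 h and 163 FPKM at 42 h. The transcript length implied by its counts and FPKM differed between the experiments, so its level per length is uncertain.

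**Figure D4:**
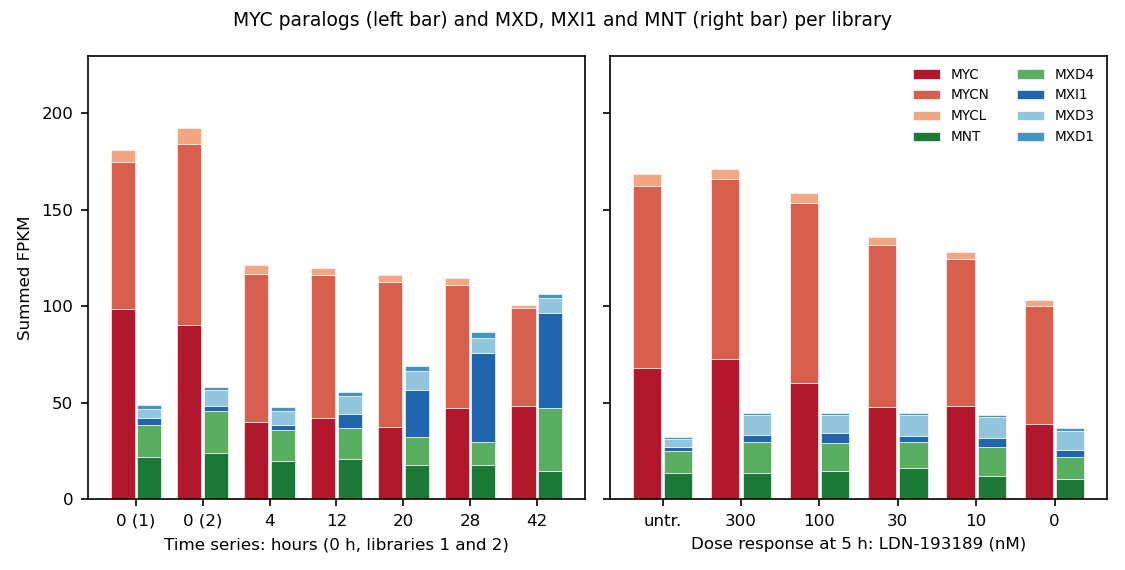
Stacked FPKM of the MYC paralogs (left bar of each pair) and of the antagonists MXD1, MXD3, MXD4, MXI1 and MNT (right bar) per library, for the time series in hours (left panel) and for the dose response from untreated cells through falling LDN doses in nM (right panel). The right bar passes the left one at 42 h (107 against 101 FPKM), where MXI1 is its largest piece.

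Other genes of the network were counted by lists. These lists were chosen with earlier results of these data known, so counts set beside the share of all genes are descriptive. Of all tested genes, 19.9% were called higher and 17.8% lower at 42 h. The shares were 19.2% and 17.5% in the time trend, and 10.4% and 10.9% with LDN. Of 4 genes of the parallel MLX and MGA branch, MLX, MLXIP, MLXIPL and MGA, 1 was higher at 42 h, MLXIPL, a glucose-sensing activator (log2 difference 1.04), which also rose in the time trend while MGA fell. With LDN 0 changed by edgeR, 1 at an unadjusted p under 0.05. Of 8 coactivators of MYC, 0 were called at 42 h by edgeR, also at an unadjusted p under 0.05, and 1 rose with LDN, WDR5, which tethers MYC to chromatin (0.04 log2 per dose step). In the time trend 1 coactivator fell, RUVBL1, an ATPase. Of 6 genes of the SIN3 and NCOR corepressors, 0 were called at 42 h by edgeR, also unadjusted, and SIN3A, the scaffold that MXD proteins bind, rose with LDN (0.06 log2 per dose step) and fell in the time trend. Without the filter MGA, RUVBL1 and SIN3A were not called in the trend. Of 10 genes of MYC protein turnover, 2 were higher at 42 h, among them FBXW7 (log2 difference 0.76), the ubiquitin ligase subunit that recognizes phosphorylated MYC. In the same list 1 was lower, PIM1 (-1.19), a kinase. With LDN, FBXW7 fell by 0.10 log2 per dose step and PIM1 rose by 0.08, among 3 higher and 2 lower genes of that list.

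Of 19 ribosome biogenesis genes known as MYC targets, 9 fell in the time trend (17.5% of all genes) and 0 rose (0 also at an unadjusted p under 0.05, edgeR). At 42 h, 6 were lower (17.8% of all genes), among them POLR1B, a subunit of RNA polymerase I (log2 difference -1.15), NOP16 (-1.08) and GNL3, the nucleolar GTP-binding protein nucleostemin (-1.08), and the count was 3 without the filter on low counts. The median of the list at 42 h was -0.59, beside -0.01 for all genes. At 4 h, when MYC was already at 0.394 of its 0 h mean, 0 of the 19 were called by edgeR, where 0.632% of all genes were called lower. The 4 h median of the list was -0.18, beside -0.01 for all genes, and 1 of the 19 was lower at an unadjusted p under 0.05. With LDN, 11 of the 19 rose (10.4% of all genes), among them NOP2, an rRNA methyltransferase (0.11 log2 per dose step), NOP16 (0.08) and RRS1 (0.07), and 1 fell, UBTF (-0.07), a factor of RNA polymerase I. The median slope was 0.05 log2 per dose step, beside 0.00 for all genes.

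Of 14 metabolic target genes, 8 fell and 1 rose in the time trend (5 fell without the filter), where 17.5% of all genes fell and 19.2% rose. At 42 h, 5 were lower (17.8% of all genes), with a list median of -0.73 beside -0.01 for all genes, and they included HSPE1, a mitochondrial chaperonin (log2 difference -1.60), and ODC1, the first enzyme of polyamine synthesis (-1.03), and 2 were lower without the filter. The gene that rose was SLC7A5 (2.01), a transporter of large neutral amino acids. With LDN, 5 rose and 1 fell (10.4% and 10.9% of all genes), and SLC16A1, a lactate transporter, had the largest slope (0.12 log2 per dose step). The 1 that fell with LDN was ODC1 (-0.04 log2 per dose step). Of 7 targets of translation and cycle entry, 3 fell in the time trend and 4 were lower at 42 h (17.5% and 17.8% of all genes). The 42 h median of these targets was -0.96, and the lower ones included CCND2, cyclin D2 (-2.24), TFAP4 (-1.45), a transcription factor, and TERT, the catalytic subunit of telomerase (-1.41). With LDN 3 of the 7 rose (10.4% of all genes), TERT (0.12), CCND2 (0.09) and EIF4E (0.04), the cap-binding protein.

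Of 5 genes that MYC is known to repress, 5 rose in the time trend (19.2% of all genes) and 5 at 42 h (19.9%), with a median log2 difference of 3.81 beside -0.01 for all genes. They include CDKN2B (5.35), an inhibitor of CDK4 and CDK6, NDRG1 (4.20), a stress-responsive gene, and GADD45A (3.81), a DNA damage response gene. With LDN, 2 of the 4 tested fell (10.9% of all genes), NDRG1 (-0.24 log2 per dose step) and NDRG2 (-0.15). Many other genes moved in the same libraries, and the part of MYC in any of these lists was not tested. Among 14 proliferation genes 3 fell in the time trend, MCM4 and MCM6, helicase subunits, and CCNE1, cyclin E1 (17.5% of all genes), and 1 without the filter. At 42 h MCM6 was lower (log2 difference -0.87), and 0 of the list were called in edgeR without the filter. Their summed CPM ran from 3228 at 42 h to 3973 in the second 0 h library, and from 4140 to 4376 in the dose response. By edgeR 0 of the 14 were called with LDN, and 2 had an unadjusted p under 0.05, 1 in each direction, while 1 was called higher without the filter.

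**Figure D5:**
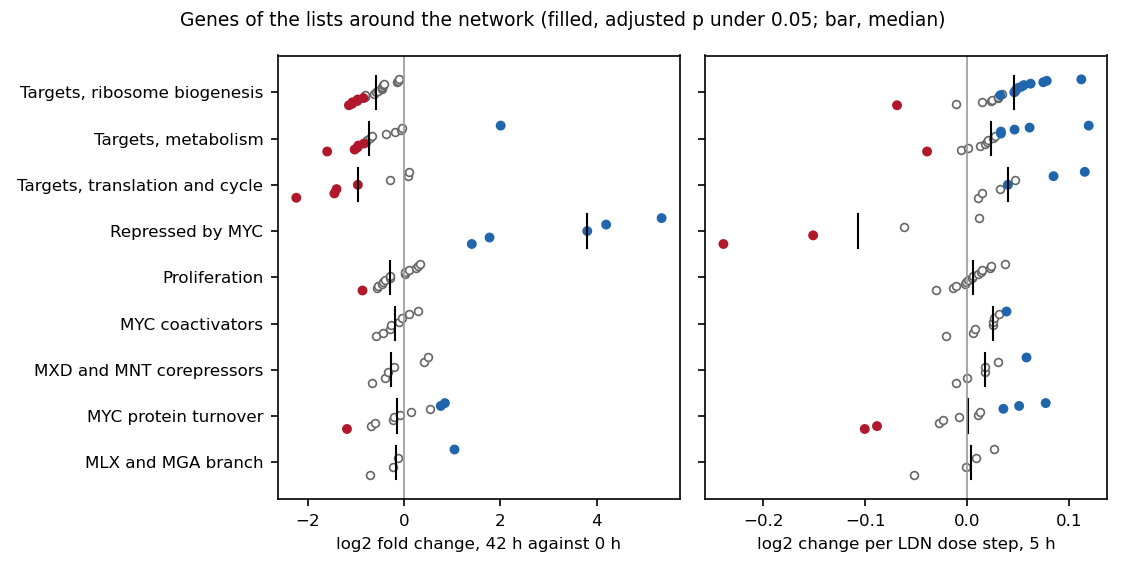
Each point is 1 gene of a list, by its log2 difference at 42 h against 0 h (left) or its slope in log2 per LDN dose step (right). Filled points had an adjusted p under 0.05 in edgeR (blue higher, red lower), black bars are list medians and the grey line is 0. Medians of the 3 target lists lie below 0 at 42 h and above 0 with LDN, and that of genes repressed by MYC lies on the other side in both. The lists were chosen with earlier results of these data known.

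The genes whose pattern was most like a member were found over 12 values, 6 time points and 6 dose response libraries, with each experiment centred on its own mean, among 9569 genes (9570 for MXI1). The 0 h value is the mean of both 0 h libraries. The libraries differ in depth and treatment, and the part of either in these correlations was not tested. For MYC they were GNG5, a G protein subunit, and HEY2, a transcriptional repressor of the Notch pathway (Pearson r = 0.958 for both), and UQCRQ, a subunit of respiratory complex III (0.940). For MYCL they included F2R, a thrombin receptor (0.972). For MAX they were ABI1 (0.990), MGST3 (0.987) and ATP6V0B (0.986), a subunit of the vacuolar proton pump. For MXD4 they were CRK (0.950), TMEM165 (0.948) and SEC23B (0.945). For MXI1 they were METRNL (0.995), CTSH, a lysosomal protease (0.994), and APP, the amyloid precursor protein (0.993). MYCN, MXD1, MXD3 and MNT did not enter, since their range over the time points was under 1 log2 unit.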

How the data were processed

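Bulk RNA-seq of 13 libraries was analysed. The authors trimmed reads with Cutadapt and, per the submitters' processing notes, used STAR 2.7.8a, RSEM 1.3.3 and the build GRCh38. The ENSEMBL release and the strand setting of the counting are not given in the sources used here. The deposited count tables hold RSEM expected counts per gene, not normalized, which were whole numbers and used as such. The deposited FPKM tables are the authors' values per length and depth.

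Groups were taken from the labels. Of 61546 features, 5 that are not human were left out of tests. Genes averaging 1 CPM or more were tested with edgeR 4.0.16 (TMM, quasi-likelihood test, Benjamini-Hochberg adjustment over all genes tested, called at 0.05) in R 4.3.3, 15976 in the time series and 14907 in the dose response. The time series was fitted with hours as a line, as a polynomial of degree 2 and as a factor against 0 h, and the 5 libraries with BMP4 with the LDN dose step (each step to the next dose counted as 1). Since later times and doses are single libraries, the error came from the scatter around the fitted line or, in the factor fit, from the 2 0 h libraries. In each edgeR fit this error was moderated across genes. The untreated library entered no test, and its intervals, at 95%, cover counting error only. Alternatives were library totals, DESeq2 1.42.0, no filter, leaving out each library, the order of the time points, log10 of LDN in nM plus 10, and limma 3.58.1 on log2(FPKM + 1) for genes averaging 1 FPKM or more, a scale that understates changes of low genes. The edgeR fits of the line, the polynomial, 42 h against 0 h and the dose step were first run on simulated counts with known changes. The other time points, DESeq2 and limma were not simulated. The simulated spread was fixed and not estimated from these data, so it does not give the error rate in them.

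Depth was 15600931 to 71333471 counts per library. Implied lengths are counts divided by FPKM and library size. The genes named are the 9 members, from each other list up to 3 called genes with the largest 42 h difference and up to 3 with the largest dose slope, UBTF, RUVBL1, MCM4 and CCNE1, which were named after their values were seen, genes with overlapping exons (GENCODE annotation), and for members with a range of at least 1 log2 unit over time the 3 genes most like them (log2 CPM with 1 CPM added, genes averaging 10 CPM or more). Some genes that this rule names are not reported here. The members and lists were chosen with earlier results of these data known. Figures were drawn with matplotlib 3.10.9 in Python 3.11.15.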

Additional observations from a re-analysis of the deposited data

How the results depend on the processing

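No time after 0 h and no dose had a second library, and depth limits MXI1, MXD1 and MXD3 at 5 h, where untreated cells gave 68, 74 and 65 counts. No paired analysis was possible because only the 0 h group has numbered replicates. The following counts moved by over 1.5 times, and the cause was not tested unless fewer libraries entered. In the time trend, limma on FPKM called 1968 genes higher, and leaving out 1 library gave 1871 to 3436 higher and 1386 to 3166 lower, the lowest without the 42 h library, and 3736 to 8422 genes for a change of any shape. Members called lower in the trend were 3 with library totals and with FPKM, and 0 to 1 when libraries were left out. DESeq2 called 396 genes higher and 59 lower at 4 h (168 lower without the filter), 724 and 247 at 12 h, and 635 lower at 20 h. Members called lower at 12 h were 1 with library totals, without the filter and with DESeq2. At 28 h DESeq2 called 1 member higher and 1 lower, and at 42 h 1 was lower without the filter. In the dose trend FPKM called 330 genes higher and 517 lower and 3 members higher, and leaving out a dose gave 874 to 1423 genes higher. Against untreated cells 3 members were higher by over 0.5 in FPKM (MXI1 at a log2 ratio of 0.996 in place of 0.36), and MNT was no longer lower by that much. Apart from these counts, and with a smaller shift, the ratio of antagonists to paralogs, 42 h over 0 h, was 3.27 in CPM and 3.71 in FPKM.

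Values near 0 changed sign. MXD3 at 4 h and MNT at 12 h stood at log2 differences of 0.063 and 0.000998 with library totals. The MXD4 time slope ranged from -0.013 to 0.029 when libraries were left out, the MAX dose slope from -0.0049 to 0.032 and that of MXD3 from -0.070 to 0.00048, and the MXI1 dose slope was 0.011 with FPKM.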
